A study of Mus musculus with 12 samples.

Results

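The genes described here encode the subunits of the receptors for glutamate and GABA, the main excitatory and inhibitory transmitters of the brain. They were taken by gene symbol, and 47 of the 23725 genes in the deposited table matched: 4 AMPA, 5 kainate, 7 NMDA, 2 delta and 8 metabotropic glutamate receptor genes, 19 GABA-A receptor genes and 2 GABA-B receptor genes. The symbol rule itself used no measured value, but the genes were chosen with earlier results of these data known. RNA came from the subventricular zone (SVZ), the tissue along the lateral ventricle in which neural stem cells make neuroblasts. The tissue was taken from male wild-type mice aged 2, 6, 18 and 22 months, with 3 libraries per age, and was broken up into single cells before total RNA was extracted. The labels name the strain, C57BL/6, for the 2-month libraries. They do not say whether the 3 libraries of an age are separate animals, so that the p-values below measure only the spread between libraries, which may be technical.

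Glutamate receptors fall into channels, built from AMPA, kainate or NMDA subunits, and metabotropic receptors, which act through G proteins. An NMDA receptor needs the subunit Grin1 together with Grin2 or Grin3 subunits, and Gria2 keeps AMPA receptors from passing calcium. GABA-A receptors are chloride channels, mostly of alpha and beta subunits with a gamma subunit at synapses or the delta subunit outside them, whereas GABA-B receptors are metabotropic pairs of Gabbr1 and Gabbr2. In the SVZ, GABA released by neuroblasts is known to act on the stem cells, and the striatum, the neighbouring brain region, is rich in both receptor kinds.

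The values are read counts divided by a size factor of each library, called normalised counts here. Library totals ran from 6381390 to 15962517 reads, and 3 reads, taken as the floor of detection, equalled 1.74 to 4.41 normalised counts. Ages were compared with limma on log2(normalised count + 1) over 15663 genes, those reaching 10 normalised counts in 3 or more libraries, with Benjamini-Hochberg adjustment over those genes and a threshold of 0.05, two-sided. Fold changes are differences on that log2 scale, given with their standard error. The neuroblast markers include Tubb3, which is also a pan-neuronal marker. Markers of neuroblasts were detected in every library, with a summed level of 9593 to 10009 normalised counts at 18 months and 11425 to 12294 at 2 months. So were markers of striatal projection neurons, with sums of 74181 to 81785 and 75964 to 81043. No marker of the cell types checked stayed under 10 normalised counts in every library. In bulk RNA, fewer cells of a type and less RNA per cell cannot be told apart.

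The receptor subunit RNAs differed mainly between the 22-month libraries and all younger ones, and most of those that passed the test were lower at 22 months. Of the 47 genes, 45 passed the filter on low values. Gabrp and Gabrr3, a pi and a rho subunit, did not, with no library above 0.88 normalised counts for Gabrp and 2.87 for Gabrr3. At 22 against 2 months, 20 subunit genes were lower and 1 was higher, where 17.2% of all tested genes were lower and 18.4% higher. At 22 against 18 months, 15 were lower and 2 higher, against 10.2% and 8.63% of all genes, and at 22 against 6 months 15 were lower and 3 higher, against 11.6% and 10.6%. These comparisons share the 22-month libraries. Their counts rested partly on single libraries, and calls over all genes fell with them. Without replicate 3 of 18 months 9 genes passed at 22 against 18 months, beside 7.56% of all genes in place of 18.9%. At 22 against 6 months 9 passed without replicate 2 of 6 months, beside 11.4% of all genes in place of 22.2%. There 11 passed without replicate 3 of 6 months (12.3% of all genes) or replicate 2 of 22 months (15.8%). The median fold change of the 45 genes was -0.23, -0.20 and -0.19 in that order, where the median over all tested genes was 0.02 in each.

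Among the younger ages few calls were made. At 18 against 2 months 3 subunit genes were lower and none higher, where 7.28% of all tested genes were called, 3.35% as lower and 3.94% as higher. At 6 against 2 months limma called 0 of 45, beside 0.926% of all genes. An unadjusted p under 0.05 was reached by 12 of the 45 and by 2405 of all 15663 genes. DESeq2 on the recovered reads called 3 there, beside 1.52% of all genes, and edgeR 0, beside 0.926%. At 18 against 6 months limma again called 0 of 45, beside 0.153% of all genes. There 6 of the 45 and 1440 of all 15663 genes had an unadjusted p under 0.05. DESeq2 called 1, beside 0.402% of all genes, and edgeR 0, beside 0.243%. In all, 28 of the 45 genes passed in at least 1 of the 6 comparisons and 17 passed in none. At 22 against 2 months alone 35.7% of all tested genes passed. Their share over the 6 comparisons together is not given here, so the count of 28 does not set the subunits apart.

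**Figure D1:**
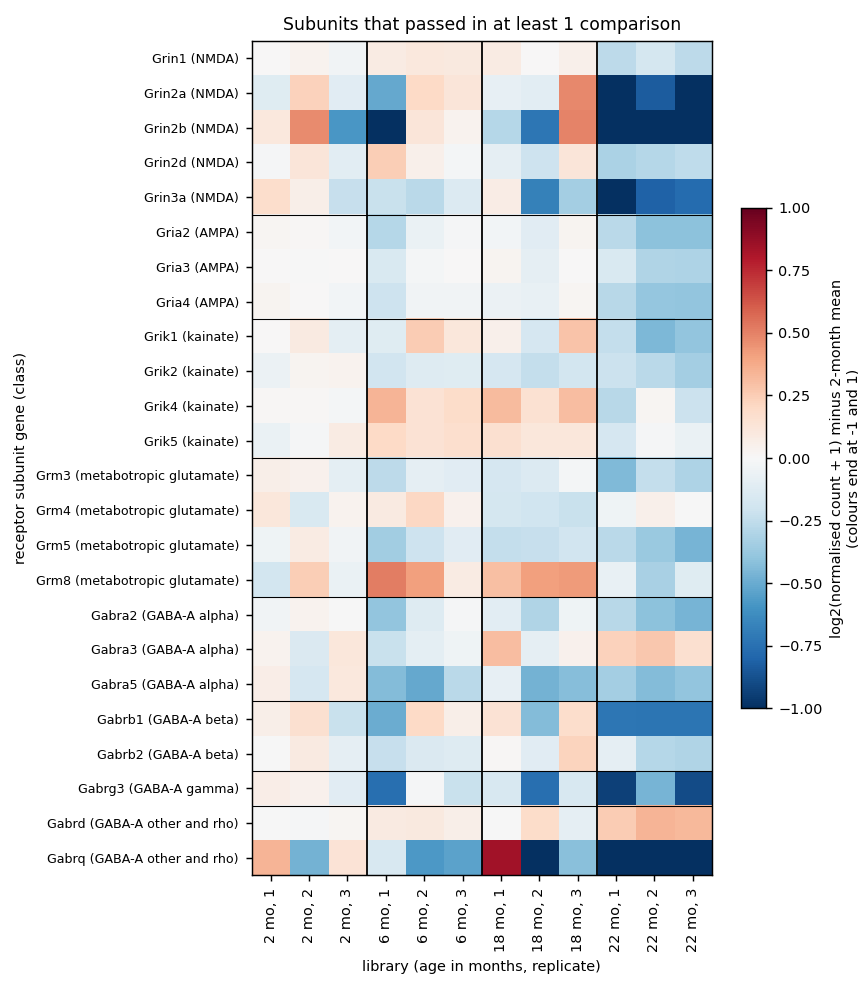
Each row is 1 of 24 of the subunit genes that passed in at least 1 comparison, grouped by receptor class, and each column is 1 library. Colour shows log2(normalised count + 1) minus the gene's mean at 2 months, with the colour scale ending at -1 and 1. The 22-month columns are blue for most genes, with Grin2a, Grin2b, Grin3a, Gabrb1, Gabrg3 and Gabrq darkest, and red for Gabrd and Gabra3.

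Of the 7 NMDA receptor genes, 4 were lower at 22 than at 2 and 18 months and 5 were lower than at 6 months. The share of all tested genes called lower was 17.2%, 10.2% and 11.6% at 22 against 2, 18 and 6 months. Grin2b had the lowest fold changes of the class. Per kilobase of the longest annotated transcript, Grin1, the obligatory subunit, supplied 83.3% of the class over all libraries, followed by Grin2c at 9.2% and Grin2d at 2.4%. That order depends on the length used. Grin2b (24060 nt) and Grin2a (14634 nt) had mean normalised counts of 465 and 219 over all libraries, above Grin2d (5431 nt) at 152. Grin1 (chromosome 2, 25291177 to 25319187, build GRCm38.p6) counted 4220.2, 4310.0 and 4119 at 2 months, 4462, 4537 and 4518 at 6 months, 4451, 4217 and 4359.6 at 18 months and 3516, 3729.9 and 3519 at 22 months. The 3 oldest libraries lay below all 9 others. From 18 to 22 months Grin1 fell by 0.28 ± 0.05 (adjusted p = 0.00101, limma), and from 2 to 22 months it fell by 0.23 ± 0.05 (adjusted p = 0.001, limma). A gene on the opposite strand, E130003G02Rik, lies inside Grin1 with 1904 ± 59.4 normalised counts at 18 months and 1623 ± 94.2 at 22 months (SD, n = 3), and it also fell by 0.23 ± 0.05 (adjusted p = 0.00724, limma). Whether the counting used the strand is not given in the sources used here, so reads of these overlapping genes cannot be told apart.

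The Grin2 subunits set the opening time and the magnesium block of the channel. Grin2b, a subunit abundant in young neurons, counted 658, 850.1 and 407 at 2 months, 220.1, 665 and 627 at 6 months, 500.1, 370.4 and 860.4 at 18 months and 160.4, 126 and 135 at 22 months. The 3 younger ages overlapped widely, while all 22-month libraries lay below every other. From 2 to 22 months Grin2b fell by 2.12 ± 0.35 (adjusted p = 0.00026, limma). Grin2a, which replaces Grin2b in many synapses as neurons mature, counted 227, 289.8 and 228 at 2 months, 173, 283 and 269 at 6 months, 233, 229 and 344 at 18 months and 89.96, 138 and 119 at 22 months. Its 22-month values also lay below every other library, and it fell by 1.21 ± 0.19 from 18 to 22 months (adjusted p = 0.000802, limma). The calls of Grin1, Grin2a and Grin2b at 22 months against each younger age held without any 1 library.

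Grin3a, a subunit that lowers calcium entry, counted 160.4, 148 and 121 at 2 months, 121, 117 and 129 at 6 months, 149.7, 88.3 and 112 at 18 months and 69.1, 80.8 and 82.9 at 22 months. From 2 to 22 months it fell by 0.87 ± 0.16 (adjusted p = 0.000678, limma). From 18 to 22 months it fell by 0.55 ± 0.16 (adjusted p = 0.0245, limma), a call that ended without replicate 1 (adjusted p = 0.133) or 3 (0.073) of 18 months or replicate 1 of 22 months (0.0741). Ppp3r2, a calcineurin subunit gene that lies inside Grin3a, had 104 ± 6.68 normalised counts at 18 months and 86.4 ± 12.2 at 22 months. Grin2c and Grin3b passed in no comparison, and Grin2c held its highest values at 6 months, 614, 576 and 565, against 506, 495 and 486 at 2 months. Grin2d fell at 22 against 6 months and passed in no other comparison, from 169 to 129. As a share of the class per kilobase, Grin2b made up 1.96% ± 0.82 at 18 months and 0.582% ± 0.0897 at 22 months (SD, n = 3), and Grin2c 8.34% ± 0.341 and 10.8% ± 0.456. These shares were not corrected for the link between fold change and transcript length at 22 months that is described below.

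**Figure D2:**
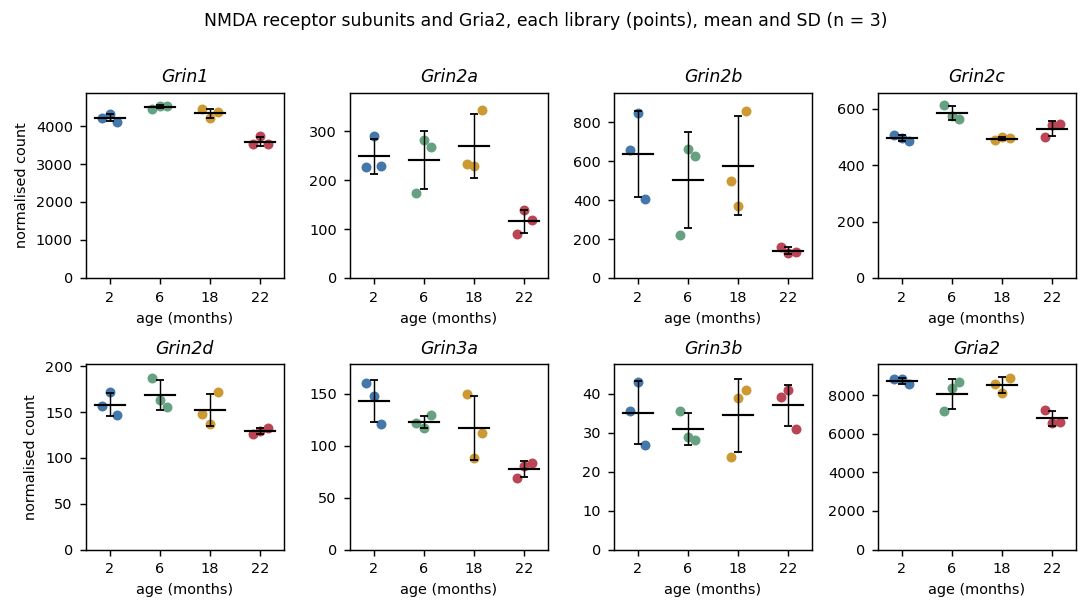
Normalised counts (y axis, from 0) of the 7 NMDA receptor genes and Gria2 by age in months (x axis). Points are libraries, the wide bar is the mean and the error bar the SD of 3 libraries. Grin2b ran from 126 to 160 at 22 months and Grin2a from 89.96 to 138, below all libraries of the younger ages, while Grin2c and Grin3b passed in no comparison.

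Of the AMPA receptor genes, 3 of 4 were lower at 22 months than at each younger age, and Gria1 passed in no comparison. Among all tested genes 17.2%, 11.6% and 10.2% were lower at 22 against 2, 6 and 18 months. After each library was corrected for the length and GC content of transcripts, only Gria4 of the class was lower in these comparisons. The summed level of the class per kilobase was 2827 ± 25.4, 2672 ± 168, 2747 ± 108 and 2384 ± 101 normalised counts per kilobase at 2, 6, 18 and 22 months (SD, n = 3). Gria2, the subunit that makes the channel calcium-tight, counted 8835, 8822 and 8553 at 2 months, 7180.0, 8363 and 8653 at 6 months, 8559.7, 8079 and 8884 at 18 months and 7229, 6556 and 6578 at 22 months. All 22-month values lay below those of 2 and 18 months, while replicate 1 of 6 months lay within them. From 18 to 22 months Gria2 fell by 0.33 ± 0.06 (adjusted p = 0.00302, limma), while its fold change was 0.08 after each library was corrected for the length and GC content of transcripts. Gria4, a subunit with fast gating, counted 2191, 2149 and 2106 at 2 months, 1860.0, 2092 and 2102 at 6 months, 2068, 2045 and 2176 at 18 months and 1773, 1644 and 1631 at 22 months. Its 22-month libraries lay below all others, and it fell by 0.32 ± 0.06 from 18 months (adjusted p = 0.00154, limma) and fell by 0.35 ± 0.06 from 2 months (adjusted p = 0.000224, limma).

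Gria3, an X-linked subunit, counted 2909, 2892 and 2903 at 2 months, 2616, 2858 and 2908 at 6 months, 2954, 2731 and 2911 at 18 months and 2614, 2359 and 2344 at 22 months. It fell by 0.23 ± 0.06 from 18 to 22 months (adjusted p = 0.00954, limma), or -0.11 (0.0916) after the length and GC correction, with 22-month replicate 1 and 6-month replicate 1 almost level. At 22 against 6 months both Gria2 (adjusted p = 0.0129, limma) and Gria3 (0.0202) missed the threshold without replicate 2 or 3 of either age, with adjusted p from 0.0535 to 0.0952. Gria1, the most abundant of the class per kilobase, counted 5738, 5732 and 5709.7 at 2 months, 5245, 5501 and 5668 at 6 months, 5577, 5249 and 5654 at 18 months and 5413, 5200.5 and 5223 at 22 months. The 2-month libraries lay above all others, yet the fold change at 22 against 2 months, -0.12 ± 0.05, missed the threshold (adjusted p = 0.062, limma). Gria1 supplied 36.1% ± 0.118 of the class per kilobase at 18 months and 39.9% ± 0.803 at 22 months, and Gria2 29.9% ± 0.306 and 27.4% ± 0.373. These shares divide by the longest annotated transcript, 5546 nt for Gria1 and 10371 nt for Gria2, and lack the length and GC correction.

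Kainate receptor genes moved in different ways. Grik5, a high-affinity subunit that needs a Grik1, Grik2 or Grik3 partner, counted 1742, 1811 and 1939.9 at 2 months, 2098, 2023 and 2050.4 at 6 months, 2048, 1978 and 1981 at 18 months and 1632, 1811 and 1748 at 22 months. Its middle ages were the highest, above all libraries of 2 and 22 months, which overlapped each other. Grik5 fell by 0.25 ± 0.05 from 6 to 22 months (adjusted p = 0.00425, limma) and fell by 0.21 ± 0.05 from 18 to 22 months (adjusted p = 0.013, limma), the latter ending without replicate 1 of 18 months (0.0512). The higher level at 6 than at 2 months, 0.17 ± 0.05, did not pass (adjusted p = 0.144, limma). Grik4, the other high-affinity subunit, had means of 234, 273, 280.3 and 210.1 in order of age and fell from both 6 and 18 to 22 months.

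Grik2, a pore-forming kainate subunit, counted 1459, 1544 and 1556 at 2 months, 1327, 1386 and 1400.3 at 6 months, 1352, 1287 and 1334 at 18 months and 1310.2, 1262 and 1200.4 at 22 months. The 2-month libraries lay above all others, and 18 and 22 months overlapped. It fell by 0.27 ± 0.05 from 2 to 22 months (adjusted p = 0.000934, limma), while its fold change was 0.21 after that correction for length and GC content. Grik1 had means of 175, 187, 184 and 136 and fell at 22 months against every younger age, and Grik3, at 1397 to 1482 in the means of 2 and 18 months, passed in no comparison. Of the delta receptor genes, relatives of these channels that bind synaptic organisers, Grid1 counted 727, 615 and 654 at 18 months and 711, 742 and 715 at 22 months, with no call in any comparison. After the correction for length and GC content, however, both Grik3 and Grid1 passed as higher at 22 months against each younger age.

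Metabotropic glutamate receptor RNA had its highest mean at 2 months, with a summed level of 1476 ± 54.4, 1359 ± 95.7, 1336 ± 42.2 and 1218 ± 25.9 normalised counts per kilobase in order of age. Grm5, a receptor coupled to calcium release and the most abundant of the class per kilobase, counted 4432, 4823 and 4454 at 2 months, 3580.3, 3957 and 4209.8 at 6 months, 3878, 3902 and 3999 at 18 months and 3787, 3536 and 3302 at 22 months. The 2-month libraries lay above all 9 others. It fell by 0.37 ± 0.06 from 2 to 22 months (adjusted p = 0.000352, limma), while its fold change was -0.01 after the length and GC correction.

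Grm3, a receptor that lowers cyclic AMP and is known in astrocytes as well as neurons, counted 1125, 1114 and 1009.8 at 2 months, 899.9, 1017 and 999.7 at 6 months, 963, 986 and 1070.0 at 18 months and 795, 918 and 875 at 22 months. From 2 to 22 months it fell by 0.33 ± 0.07 (adjusted p = 0.00194, limma), with no overlap between these ages. Its call at 22 against 18 months (adjusted p = 0.0361, limma) ended without replicate 3 of 18 months (0.17) or replicate 1 (0.127) or 3 (0.0734) of 22 months. Grm8, a presynaptic receptor, had means of 81.7, 103, 106 and 72.0 and fell at 22 against 6 and 18 months. Grm4, another presynaptic receptor, had means of 804, 869, 697 and 801 in order of age. It was higher at 22 than at 18 months, just past the threshold (adjusted p = 0.0496, limma), and did not pass there after the length and GC correction. Its 22-month mean lay near that of 2 months and below that of 6 months. Grm2, Grm6 and Grm7 passed in no comparison.

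GABA-A receptor genes were called in both directions. Of the 17 tested GABA-A genes, 1 was higher and 3 were lower at 22 against 18 months, where 8.63% of all tested genes were higher and 10.2% lower. Gabrd, the delta subunit of receptors outside synapses, counted 1300.2, 1288 and 1317 at 2 months, 1383, 1395 and 1353 at 6 months, 1295, 1475 and 1224 at 18 months and 1557, 1645 and 1630.2 at 22 months. The 3 oldest libraries lay above all 9 others. It rose by 0.28 ± 0.06 from 18 to 22 months (adjusted p = 0.00547, limma) and rose by 0.31 ± 0.06 from 2 to 22 months (adjusted p = 0.00115, limma). The call at 22 against 6 months (0.0149) ended without replicate 3 of 6 months (0.0598) or replicate 2 of 22 months (0.0531). An unnamed gene (id544678) overlaps Gabrd by 6000 bases, with 237 normalised counts at 18 months and 168 at 22 months, and reads of these overlapping genes cannot be told apart either.

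Gabra3, an alpha subunit of benzodiazepine-sensitive receptors, rose from 6 to 22 months, with means of 359 and 453 and no overlap. Gabrg3 had means of 128 at 2 months and 75.8 at 22 months and fell between them, but it did not pass there after the length and GC correction. Gabrg1 passed in no comparison.

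Among the alpha subunits, which set the drug sensitivity and placement of the receptor, Gabra2 counted 497, 522 and 508 at 2 months, 386, 464 and 503 at 6 months, 473, 412 and 493 at 18 months and 418, 383 and 369 at 22 months. Its 22-month values lay below those of 2 months and overlapped those of 6 and 18 months, and it fell by 0.38 ± 0.09 from 2 to 22 months (adjusted p = 0.00417, limma), or -0.11 (0.257) after the length and GC correction. Gabra5, common outside synapses, had means of 347 at 2 months and 264 at 22 months and fell between them. Gabra4, the partner of Gabrd in the striatum and the most abundant alpha subunit gene per kilobase, counted 1900.3, 1908 and 2119.8 at 2 months, 1764, 1815 and 1870.3 at 6 months, 1709, 2083 and 1759 at 18 months and 1995, 1770.2 and 1841 at 22 months. All 4 ages of Gabra4 overlapped except 2 and 6 months, and it passed in no comparison. Gabra6 did not pass either.

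Of the beta subunits, found in most GABA-A receptors, Gabrb1 counted 214, 229 and 176 at 2 months, 145, 236 and 213 at 6 months, 226, 152 and 231 at 18 months and 124, 123 and 123 at 22 months. Its oldest libraries lay below all others, and it fell by 0.73 ± 0.17 from 2 to 22 months (adjusted p = 0.00363, limma), while its fold change was -0.07 after the length and GC correction. The call at 22 against 18 months (0.0113) ended without replicate 1 (0.0517) or 3 (0.071) of 18 months, and that at 22 against 6 months (0.0133) without replicate 2 (0.082) or 3 (0.0628) of 6 months. Gabrb2 had means of 2068 at 18 months and 1713 at 22 months, with overlapping libraries, and passed as lower.

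**Figure D3:**
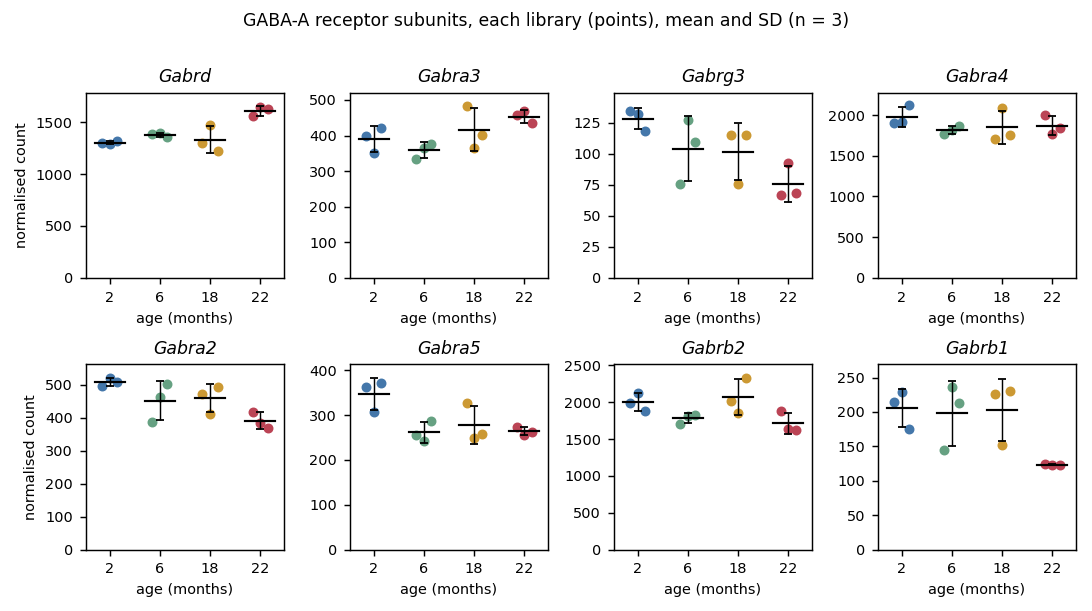
Normalised counts (y axis, from 0) of 8 GABA-A receptor genes by age in months (x axis). Points are libraries, the wide bar is the mean and the error bar the SD of 3 libraries. Gabrd at 22 months lay above all younger libraries, and Gabrb1 below them.

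Among the genes that passed at 18 against 2 months were Grik2 (fell by 0.20 ± 0.05, adjusted p = 0.0307, limma) and Grm5 (fell by 0.22 ± 0.06, 0.044), and neither overlapped between these ages. Both calls were lost without single libraries. Without replicate 3 of 2 months the adjusted p values were 0.098 and 0.073 in the same order, and without replicate 2 of 2 months 0.108 and 0.179. Without replicate 2 of 18 months they were 0.0954 and 0.0972, and without replicate 3 of 18 months 0.0762 and 0.0854. Without replicate 1 of 18 months they were 0.0582 and 0.116. Grm5 was also lost without replicate 1 of 2 months (0.0808), 2 of 6 months (0.0569) or 2 of 22 months (0.0569).

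The rare GABA-A subunits were near the detection floor. Gabrq, the theta subunit, had means of 20.1, 14.4, 18.6 and 4.46 normalised counts in order of age and passed as lower at 22 months against each younger age, after the length and GC correction at 22 against 2 months alone, with libraries from 5.67 to 35.7 at 18 months. Gabre, Gabrr1 and Gabrr2, the epsilon and the first rho subunits, stayed under 30 in every library and passed in no comparison. Gabbr1, the ligand-binding GABA-B subunit, counted 7173, 7263 and 7383 at 2 months, 7344, 7307 and 7204 at 6 months, 7211, 6967 and 6760.1 at 18 months and 6765, 7348 and 7140.2 at 22 months. All ages overlapped, and neither Gabbr1 nor Gabbr2, its G protein-coupling partner, passed in any comparison. The fold change of Gabbr1 at 22 against 2 months was -0.04 ± 0.05.

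Most GABA-A genes sit in clusters, on chromosomes 5, 7, 11 and X, and neighbours did not all share a call. On chromosome 5, within 1.40 Mb, Gabrg1 and Gabra4 passed in no comparison while Gabra2 and Gabrb1 were lower at 22 than at 2 months. Gabra4 and Gabrb1 are transcribed away from each other from starts that overlap by 388 bases. Per kilobase, Gabra4 stood at 450.4 normalised counts at 18 months and Gabrb1 at 14.8. Their promoter windows, 250 bases before to 50 after the start (RefSeq, GRCm38.p6), are shown because the pair shares a start region, and that of Grin1 because it had the most abundant RNA of the NMDA class. Capitals mark the GC box GGGCGG on either strand. The windows are chr5:71658259-71658558 on the minus strand for Gabra4, chr5:71657671-71657970 on the plus strand for Gabrb1 and chr2:25319138-25319437 on the minus strand for Grin1.
Gabra4: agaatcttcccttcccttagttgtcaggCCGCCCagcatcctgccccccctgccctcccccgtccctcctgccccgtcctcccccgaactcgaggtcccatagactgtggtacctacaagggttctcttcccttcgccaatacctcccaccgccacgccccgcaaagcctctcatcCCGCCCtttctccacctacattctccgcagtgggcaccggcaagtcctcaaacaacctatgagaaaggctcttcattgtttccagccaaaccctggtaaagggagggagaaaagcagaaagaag
Gabrb1: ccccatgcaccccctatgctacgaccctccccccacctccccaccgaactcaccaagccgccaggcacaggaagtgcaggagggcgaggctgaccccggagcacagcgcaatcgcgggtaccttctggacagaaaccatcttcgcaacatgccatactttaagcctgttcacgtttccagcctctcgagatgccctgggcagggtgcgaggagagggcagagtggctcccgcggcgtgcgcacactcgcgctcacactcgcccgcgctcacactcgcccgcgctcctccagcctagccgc
Grin1: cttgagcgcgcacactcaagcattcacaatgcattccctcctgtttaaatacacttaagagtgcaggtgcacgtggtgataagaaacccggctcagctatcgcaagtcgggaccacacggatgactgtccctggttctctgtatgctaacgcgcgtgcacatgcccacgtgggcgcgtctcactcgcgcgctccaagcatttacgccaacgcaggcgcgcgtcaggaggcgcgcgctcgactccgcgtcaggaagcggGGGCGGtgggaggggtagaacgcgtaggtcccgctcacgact

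The Gabra4 window held the GC box 2 times, the Grin1 window 1 time and the Gabrb1 window not at all. RefSeq windows were matched for 32 of the 47 genes, 39 windows in all. The GC box was in 19 of these 39 windows (48.7%), beside 35.7% of all 32851 promoter windows, which had a lower median GC content, 52.7% against 59.7%. The cyclic AMP response element TGACGTCA was in none of the 39 and in 1.79% of all windows. The letters TATAAA were in 4 of the 39 (10.3%) and in 13.6% of all windows. The RE1 element, searched in its long consensus form, was in none of the 39 and in 0.0122% of all windows. Both strands were searched for each motif. A match is a description of these letters and not a binding site.

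Fold changes at 22 months ran with transcript length across the genome, and the subunit genes include very long transcripts. Among other genes at 22 against 18 months, the median fold change was 0.12 for longest transcripts of 1500 to 3000 nt and -0.06 for 4500 to 6000 nt. It was -0.38 for the 314 genes of 10000 to 15000 nt and -0.64 for the 64 genes above 15000 nt. Grin2b has a transcript of 24060 nt, of which 4446 nt are coding, and only 1 of those 64 genes had a lower fold change. Grin2a, with 14634 nt, was lower than 303 of the 314 genes of its length class, and Gabrb1, with 13737 nt, lower than 270. Gria2, with 10371 nt, lay near its class, lower than 128 and higher than 186 of the 314. Among short transcripts, Grin1 with 4276 nt was lower than 3847 of 4271 genes, and Gabrd with 2707 nt was higher than 3720 of 4490. Genes are not independent replicates, and these ranks are descriptions.

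**Figure D4:**
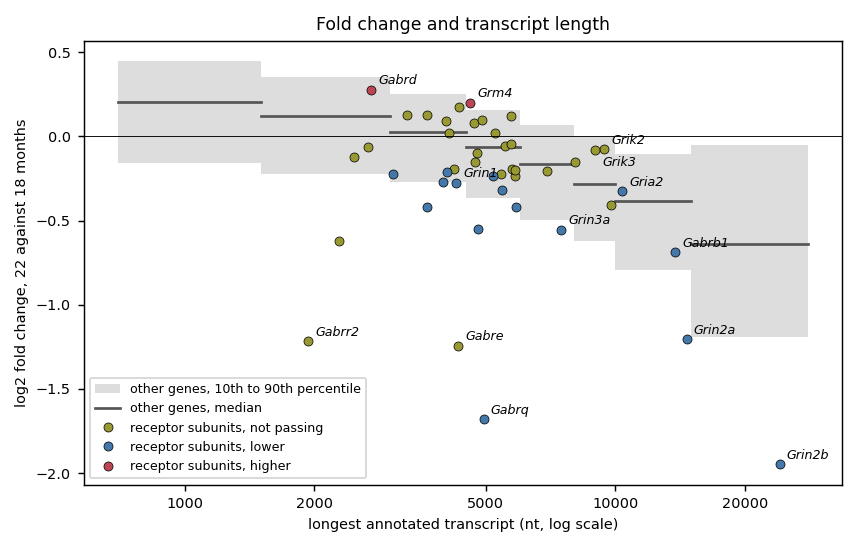
Log2 fold change at 22 against 18 months (y axis) by the length of the longest annotated transcript (x axis, log scale). Points are the 45 tested subunit genes, coloured by their call, and grey boxes span the 10th to 90th percentile of all other tested genes in 8 length classes, with a line at the median. The class medians fall from 0.21 in the shortest to -0.64 in the longest class, and Grin2b, Grin2a, Grin1, Gabrq and Grm8 are among those below their class boxes.

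With a smooth trend over transcript length and GC content removed from every library before the fit, the split of calls changed. At 22 against 18 months 10 subunit genes were then lower and 4 higher, in place of 15 and 2, where 4.6% and 5.9% of the 14852 genes with a length were called. Those that remained lower were Grin1, Grin2a, Grin2b, Gria4, Grik1, Grik4, Grik5, Grm3, Grm8 and Gabrb2. Grin2b kept a fold change of -1.20 (adjusted p = 0.00705, limma), Grin2a -0.64 (0.00963), Grin1 -0.28 (0.00109) and Gria4 -0.19 (0.00925). Gabrb1 (-0.14, 0.462), Gria3 (-0.11, 0.0916) and Grin3a (-0.33, 0.161) no longer passed, and Gria2 turned to 0.08 (0.211). Gabrd stayed higher at 0.20 (0.0356), joined by Grid1, Grik2 and Grik3.

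At 22 against 2 months the split moved from 20 lower and 1 higher to 10 lower and 8 higher, where 9.86% and 12.6% of genes were called, and 9 of the 20 lower calls were kept. Gria2, at 0.19 (adjusted p = 0.00352, limma), and Grik2, at 0.21 (0.0187), passed as higher there, the opposite of the fit without this step. Gabrb1 (-0.07), Grm5 (-0.01), Gabra2 (-0.11) and Gria3 (-0.05) did not pass. At 22 against 6 months it moved from 15 lower and 3 higher to 8 and 4, with 5.69% and 6.77% of genes called, and at 18 against 2 months 2 genes, Gabra5 and Grm4, were lower, beside 4.03% of genes (3.97% were higher), and Grik2 and Grm5 did not pass. The fall of Grin1, Grin2a, Grin2b and Gria4 and the rise of Gabrd at 22 against 2 and 18 months passed with and without this step.

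The share of normalised counts on other transcripts above 10000 nt was 5.28% to 5.74% over the libraries of 2 months, 4.81% to 5.69% at 6 months, 4.92% to 5.76% at 18 months and 3.97% to 4.11% at 22 months. Within each of the 3 younger ages, the library with the lowest share, replicate 3 of 2 months, 1 of 6 months and 2 of 18 months, also had the lowest Grin2b, at 407, 220.1 and 370.4 normalised counts. The 22-month libraries were lower in both. The labels give no batch, date or RNA quality, and what the length share did to these values was not tested beyond the fit above. The share and age moved together at 22 months and cannot be told apart there.

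**Figure D5:**
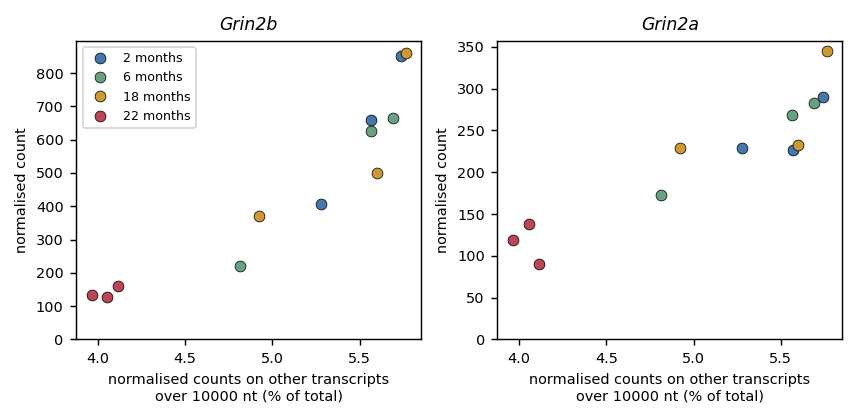
Normalised counts of Grin2b and Grin2a (y axes, from 0) by the percentage of normalised counts on other transcripts longer than 10000 nt (x axis), 1 point per library, coloured by age. The 22-month libraries sit at 3.97% to 4.11% on the x axis and lowest on both y axes, and the lowest Grin2b of each younger age belongs to its library with the lowest share.

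Genes that act with the receptors were counted from lists of auxiliary subunits, scaffolds and transmitter enzymes. Of 17 auxiliary subunits of AMPA and kainate receptors, 3 were higher and none lower at 22 against 18 months, with a median of 0.05, where 8.63% of all genes were higher. Cnih2, which slows AMPA channels, rose by 0.45 ± 0.07 (adjusted p = 0.001, limma), Neto2, a kainate auxiliary subunit, rose by 0.21 ± 0.06 (0.0245), and Nptx2, a pentraxin that gathers AMPA receptors, rose by 0.49 ± 0.14 (0.0209). Values after the length and GC correction are not given here for these 3 genes. Among other genes with longest transcripts up to 1500 nt, the median fold change in this comparison was 0.21. The call of Cnih2 held without any 1 library. That of Neto2 ended without replicate 1 (0.0822) or 3 (0.104) of 18 months or replicate 1 of 22 months (0.0962), and that of Nptx2 without replicate 1 (0.075) or 3 (0.0517) of 18 months or replicate 2 (0.0617) or 3 (0.104) of 22 months. Of 22 glutamatergic scaffold genes 6 were lower and 2 higher, where 10.2% of all genes were lower, with a median of -0.09. Shank1 fell by 0.70 ± 0.17 (0.00887), Shank2 fell by 0.38 ± 0.09 (0.00972) and Homer2 fell by 0.58 ± 0.15 (0.0135). Their longest transcripts had 8988 to 10982 nt, and after the length and GC correction Shank1 (-0.40, 0.0684), Shank2 (-0.11, 0.311) and Homer2 (-0.18, 0.481) did not pass. Without replicate 1 of 18 months the fold change of Shank1 was -0.46 (0.0405), and Shank2 (0.0529) and Homer2 (0.075) missed the threshold. Shank2 was also lost without replicate 3 of 18 months (0.0511) and Homer2 without replicate 2 of 22 months (0.0589). At 22 against 2 months 11 of the 22 were lower and 1 higher, where 17.2% and 18.4% of all genes were.

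Of 14 genes for GABA receptor scaffolds, trafficking and chloride transport, 4 were higher and 3 lower at 22 against 18 months, where 8.63% and 10.2% of all genes were. Slc12a2, the transporter that loads cells with chloride, fell by 0.64 ± 0.10 (adjusted p = 0.000735, limma), from 1401 ± 228 to 893 ± 36.8 normalised counts (SD, n = 3). Trak2, a motor adaptor that binds GABA-A subunits, fell by 0.43 ± 0.08 (0.0028), Kctd16, a GABA-B auxiliary subunit, fell by 1.05 ± 0.23 (0.00604), and Gabarapl1, a trafficking and autophagy protein, rose by 0.21 ± 0.05 (0.00885). The call of Gabarapl1 ended without replicate 3 of 18 months (0.058), and after the length and GC correction it did not pass (0.129), while those of Slc12a2, Trak2 and Kctd16 held in both checks. Gphn, the gephyrin scaffold of synaptic GABA-A receptors, was at 684 ± 47.8 and 723 ± 13.1, with no call. Of 17 transmitter enzymes and transporters 2 were higher and 1 lower, near the shares of all genes. The GABA loader Slc32a1 rose by 0.19 ± 0.06 (adjusted p = 0.0322, limma) and the glutamate dehydrogenase gene Glud1 rose by 0.17 ± 0.05 (0.0221). Values after the length and GC correction are not given here for the genes of this list. Slc32a1 missed the threshold without replicate 1 (0.124) or 3 (0.058) of 18 months or replicate 2 (0.148) or 3 (0.114) of 22 months, and Glud1 without replicate 2 (0.0579) or 3 (0.0967) of 18 months or replicate 2 (0.0768) or 3 (0.0856) of 22 months. The glutamate loader Slc17a7 passed as lower (-2.13 ± 0.72, adjusted p = 0.0482, limma), but this rested on replicate 1 of 18 months, without which the fold change was -0.93 (0.231). It also missed the threshold without replicate 1 (0.0632) or 2 (0.0566) of 2 months, replicate 2 of 6 months (0.0544) or any library of 22 months (0.0806 to 0.126). No gene of the 4 lists passed at 6 against 2 or 18 against 6 months.

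Markers of the cell types that could carry these receptors moved at the same age. The marker counts and sums below lack the length and GC correction, and corrected calls of the markers are not given here. Of 10 markers of striatal projection neurons, 7 were higher and none lower at 22 against 18 months, where 8.63% of all genes were higher and 10.2% lower, with summed levels of 74181 to 81785 at 18 months and 84046 to 87407 at 22 months. Of 10 pan-neuronal markers 1 was higher and 1 lower, with sums of 50722 to 52360.1 and 53312 to 54144. Of 8 oligodendrocyte markers 7 were lower, with sums of 90542 to 120277 and 68103 to 88653, and of 6 markers of oligodendrocyte precursors, cells that carry AMPA and NMDA receptors, 4 were lower, with sums of 2715 to 2843 and 2179.8 to 2539. Of 6 ependymal markers 4 were higher, with sums of 1135 to 1344 and 1563 to 1765. Astrocyte markers had sums of 42211 to 45723 and 42789 to 43985, with 1 of 8 higher.

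Markers of cortical excitatory neurons, a sign of overlying cortex in a dissection, were low, with sums of 177 to 729 at 18 months and 129 to 164 at 22 months. Slc17a7, their transporter, counted 452, 38.9 and 33.0 at 18 months, so that replicate 1 stood apart, and 16.9, 23.5 and 15.5 at 22 months. Grin2b in that library, 500.1, lay between those of the other 18-month libraries. Of 6 neuroblast markers, 3 were lower at 6 against 2 months, 5 at 18 against 2 months and 5 at 22 against 2 months, with median fold changes of -0.43, -0.90 and -0.65, where 0.926% of all genes were called in the first comparison and 3.35% and 17.2% were lower in the others. At 22 against 18 months none was lower and 1 was higher. Their sums were 11425 to 12294, 10633 to 11153, 9593 to 10009 and 10484 to 11323 in order of age. These sums include Tubb3, which is also a pan-neuronal marker. It was the marker not called lower at 18 and 22 against 2 months. The part of these cell type markers in the receptor results was not tested.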

How the data were processed

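RNA-seq of dissected and dissociated SVZ was deposited as 1 table of 12 libraries. The deposited values are read counts per gene divided by a size factor, a signal unit made by the authors, and the submitters' processing notes name DESeq2 and mm10. The table also holds a log2 fold change summary per gene made by the authors, not used here. The aligner, counter, strand setting and versions are not given in the sources used here. Values were whole multiples of 1 read in 100% of cases (tolerance 1e-06), so reads were recovered for edgeR 4.0.16 and DESeq2 1.42.0 as alternatives. On these reads edgeR called 2857 of all genes and DESeq2 2457 at 22 against 18 months, beside 2956 with limma 3.58.1 (R 4.3.3), the main test, with 1 coefficient per age over all 12 libraries. Lengths and GC came from the longest GENCODE transcript, and positions and promoters from RefSeq GRCm38.p6. The trend over length and GC was removed with mgcv 1.9.3. Genes with every library's value named are those with the 16 smallest adjusted p among subunits that passed, plus the most abundant of each class per kilobase. Some genes that the rule names are not reported here. The limma procedure was tested on simulated data. The genes and lists were chosen with earlier results of these data known. Replicates were not treated as paired, as the labels do not say what a replicate number marks.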

Additional observations from a re-analysis of the deposited data

How the results depend on the processing

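Counts of subunit genes that passed stayed within 1.5 times the value given, except as follows. Shares of all tested genes called in the same fits stand in brackets. At 6 against 2 months DESeq2 called 3 (1.52%), and leaving out 1 library in turn gave 0 to 1 (0.249% to 1.70%). At 18 against 6 months DESeq2 called 1 (0.402%) and leaving out 1 library gave 0 (0.0511% to 0.428%). At 18 against 2 months the count was 3, beside 7.28% of all genes. It became 0 with the replicate block (5.96%), 1 with no filter on low values (4.29%) and 0 with no intensity trend (4.47%). With the length and GC trend removed together with the block it was 1 (7.13%). Without the library of lowest long-transcript share at 2, 6 and 18 months (chosen after seeing the data) it was 0 (4.62%). Without 1 library it was 0 to 3 (3.78% to 8.61%). At 22 against 6 months the length and GC trend removed with the block gave 11 (11.5%). Leaving out 1 library gave 9 to 20 (11.4% to 24.8%), the lowest without replicate 2 of 6 months. At 22 against 18 months no intensity trend gave 10 (11.7%). Leaving out 1 library gave 9 to 19 there (7.56% to 21.2%), the lowest without replicate 3 of 18 months. In both comparisons the share of all genes was lowest in the same fit. At 22 against 2 months leaving out 1 library gave 18 to 24 (26.6% to 36.9%). The replicate block lost 3 of the 41 calls of the named genes. The labels do not say what a replicate number marks. Deviations of same-numbered libraries correlated at -0.19 to 0.16, which does not settle whether they share a day or batch.

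With the length and GC trend removed, with or without the block, Gria2 changed sign at 22 against 2 (0.19), 6 (0.11) and 18 months (0.083), and Grik2 at 22 against 2 (0.21) and 18 months (0.28). Of the 41 calls, 21 were lost there, 10 with no intensity trend, 2 with no filter, 1 each with edgeR, TMM scaling or only the compared ages, and 0 with DESeq2, whereas 28 held without any 1 library. The cause was not tested. TMM scaling shifted the median gene of a library by at most 0.07. Depth limits the rare subunits most, as Gabrq at 22 months held 1.30 to 6.21 normalised counts, about the floor of 3 reads.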
